A study of Mus musculus with 11 samples.

Results

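The genes described here encode the class I phosphoinositide 3-kinases (PI3K), the kinases AKT and mTOR with their partners and brakes, and the kinase AMPK with its activator, together with Myc. They were taken as a list of 34 gene symbols, each read from 1 probe set of the array, the one with the highest mean over all arrays. Of the 34 genes 33 were measured, out of 18193 genes tested. Rps6kb1, which encodes S6 kinase 1, is not analysed here.

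PI3K is switched on in T cells by the antigen receptor, co-stimulation, cytokines and chemokines. It makes the membrane lipid PIP3, which brings the kinase PDK1 to AKT. AKT releases the GTPase Rheb from its inhibitor, the TSC complex, and Rheb activates the mTOR complex mTORC1, which also needs amino acids sensed at the lysosome through Rag GTPases. AMPK, switched on when ATP is short, holds mTORC1 back. Regulatory T cells (Treg), the CD4 T cells that restrain immune responses and depend on the transcription factor Foxp3, are known to be sensitive to the strength of PI3K signalling, and they use mTORC1 for their suppressive function. Much of this pathway is set by phosphorylation, which an RNA measurement does not see.

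RNA was measured on 11 Affymetrix arrays, 1 per sample, from CD4 T cells of spleen and lymph node of mice aged 6 to 8 weeks, purified by positive selection and double sorted, with GFP as a sort marker. The TN group (n = 3) held naive CD4 cells negative for Foxp3 and the Treg group (n = 5) CD4 cells positive for it. The GFPKO group (n = 3) held GFP-positive CD4 cells from Foxp3GFPKO/WT mice, which carry a Foxp3 null allele marked with GFP beside a wild-type allele, so that GFP reports transcription of the null allele while the mouse can still form Treg from the other allele. The labels do not give the genotype or reporter of the TN and Treg mice and leave unstated whether each array had its own mouse. The p-values therefore rest on variation among the arrays, part of which may be technical.

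The labels were set against marker genes. Of the 6 measured CD4 T cell markers all were above a background level of 5.50 in every group, the 90th percentile of group means over 22 genes of other tissues. Of these 6 Cd28, a co-stimulatory receptor that signals through PI3K, was lower in Treg than in TN (log2 fold change -0.63, limma adjusted p = 0.024) and than in GFPKO (-0.73, adjusted p = 0.012). Of 7 Treg markers 6 were higher in Treg than in TN by the test; the exception was Foxp3, whose only probe set read 3.47 ± 0.16 (SD, n = 5) in Treg, 3.48 ± 0.45 (n = 3) in TN and 6.93 ± 0.23 (n = 3) in GFPKO, so Treg below means the arrays so labelled. Xist read 11.07 to 11.85 in GFPKO and at most 3.96 elsewhere, and Eif2s3y of the Y chromosome at most 3.38 in GFPKO and at least 7.35 elsewhere, so sex and genotype cannot be told apart in any comparison with GFPKO. The GFPKO arrays also varied more: the median SD over the 33 genes was 0.37 in GFPKO, 0.18 in TN and 0.19 in Treg. Over all genes the medians were closer, at 0.24, 0.15 and 0.17. Of the 33 genes 27 had their largest SD in GFPKO, a share that was not counted over all genes. The actin control's 3′ minus 5′ signal, a measure of RNA integrity, was 0.77 and 0.83 on the log2 scale in GFPKO replicates 1 and 2, above every TN and Treg array (0.38 to 0.61), and 0.45 in GFPKO replicate 3.

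**Figure D1:**
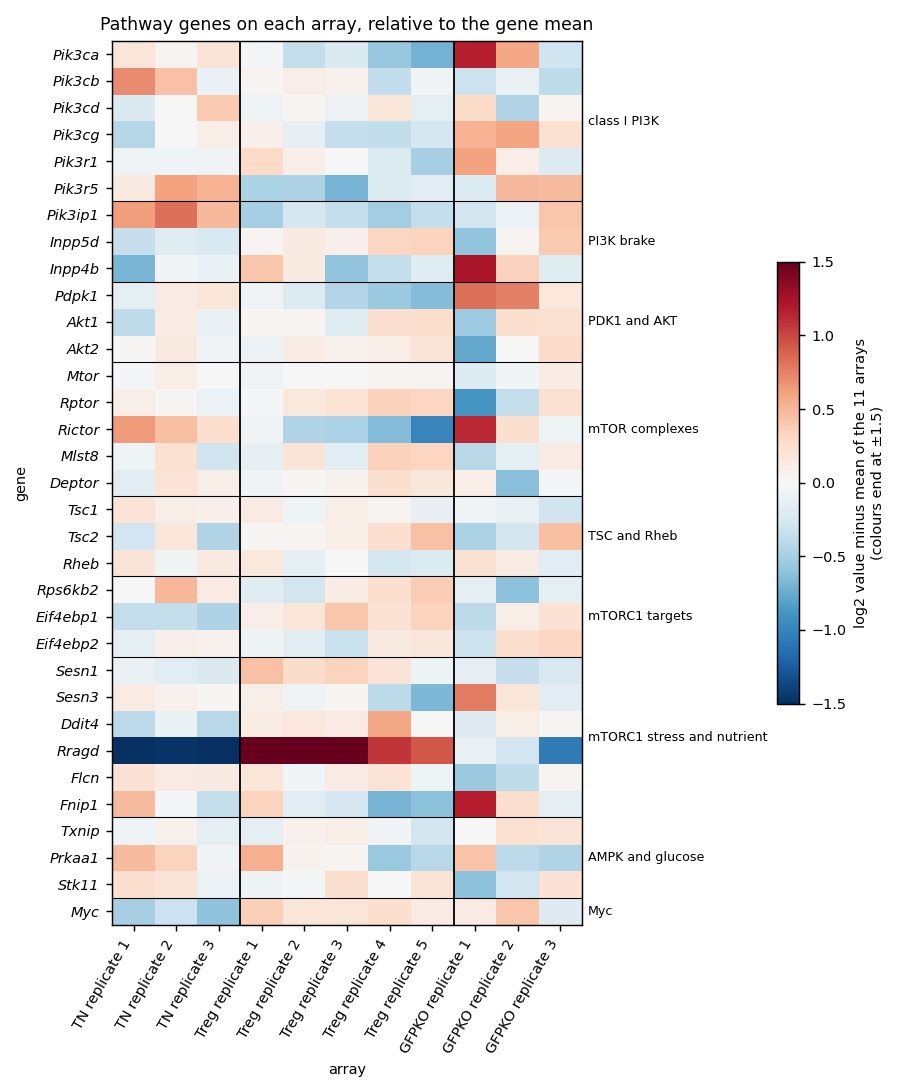
Each row is 1 of the 33 measured genes, grouped by role, and each column 1 of the 11 arrays; the colour is the log2 value minus the gene's mean over the 11 arrays, with colours ending at ±1.5. Rragd stands out, low in the 3 TN arrays and high in the 5 Treg arrays, while GFPKO replicate 1 departs from the other arrays in several genes, among them Rictor, Fnip1 and Inpp4b.

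Treg differed from TN in few of these genes. Rragd, a Rag GTPase through which amino acids reach mTORC1, was at least 8.08-fold higher, and Myc, Eif4ebp1 and Ddit4 were higher by between 1.41-fold and 1.62-fold. Pik3ip1, a transmembrane inhibitor of PI3K, was 2.07-fold lower in Treg, Rictor, the defining subunit of mTORC2, 1.95-fold lower, and Pik3r5, the p101 regulatory subunit of PI3K gamma, 1.77-fold lower. In all 7 of 33 genes (21.2%) were called in limma at an adjusted p under 0.05, 4 higher and 3 lower, where 9.97% of all 18193 genes were called, 6.54% higher and 3.42% lower. The median log2 fold change was -0.05 over the 33 genes and 0.03 over all genes. As in any bulk sample, fewer cells that express a gene and less RNA per cell cannot be told apart.

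Rragd read 4.34, 4.62 and 4.19 (log2) in the TN arrays, 7.61, 7.58, 7.63, 7.16 and 7.02 in the Treg arrays, and 5.97, 5.80 and 5.02 in the GFPKO arrays. No TN array came near a Treg array, and the GFPKO arrays lay between the groups without overlap with either. The log2 fold change of Treg minus TN was 3.01 ± 0.21 (SE; limma adjusted p = 9e-08), a lower bound because TN lay at background. The other 2 Rragd probe sets lay at background in every group, so the value rests on 1 probe set, and the mean over all 3 gave a log2 fold change of 1.12.

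Among the 33 genes, Rragd and Pik3ip1 had the largest rise and the largest fall from TN to Treg. Their upstream sequences are shown 5′ to 3′ on the + strand of GRCm38.p6 as RefSeq gives them, with every CG pair in capitals. They cover the 250 bases before each start, chr4:32982748-32982997 for Rragd, which overlaps no other annotated gene, and chr11:3330481-3330730 for Pik3ip1, where the annotated gene Gm12592 also lies.
Rragd: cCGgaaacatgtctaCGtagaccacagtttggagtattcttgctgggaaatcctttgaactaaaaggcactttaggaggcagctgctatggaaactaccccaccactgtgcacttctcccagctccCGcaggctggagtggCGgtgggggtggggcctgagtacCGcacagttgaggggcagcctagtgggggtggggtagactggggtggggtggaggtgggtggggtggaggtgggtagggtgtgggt
Pik3ip1: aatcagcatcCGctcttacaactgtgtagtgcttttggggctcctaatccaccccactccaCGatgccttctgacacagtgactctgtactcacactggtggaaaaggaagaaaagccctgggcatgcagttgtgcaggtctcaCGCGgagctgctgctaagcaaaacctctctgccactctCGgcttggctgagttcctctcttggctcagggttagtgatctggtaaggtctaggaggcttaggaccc
Each stretch held 5 CG pairs. Over the 300-base windows that RefSeq's table gives, 250 bases before and 50 after a start, Rragd had 6 CG pairs and Pik3ip1 7, against a median of 7 over all 32851 windows, while Rictor had 47, more than 98.6% of windows. Neither the forkhead motif GTAAACA, bound by FOXO factors among others, nor the E-box CACGTG, bound by Myc and by the lysosomal regulators TFEB and TFE3, was found on either strand in the windows of Rragd and Pik3ip1. That says only that these letters are not in these windows.

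**Figure D2:**
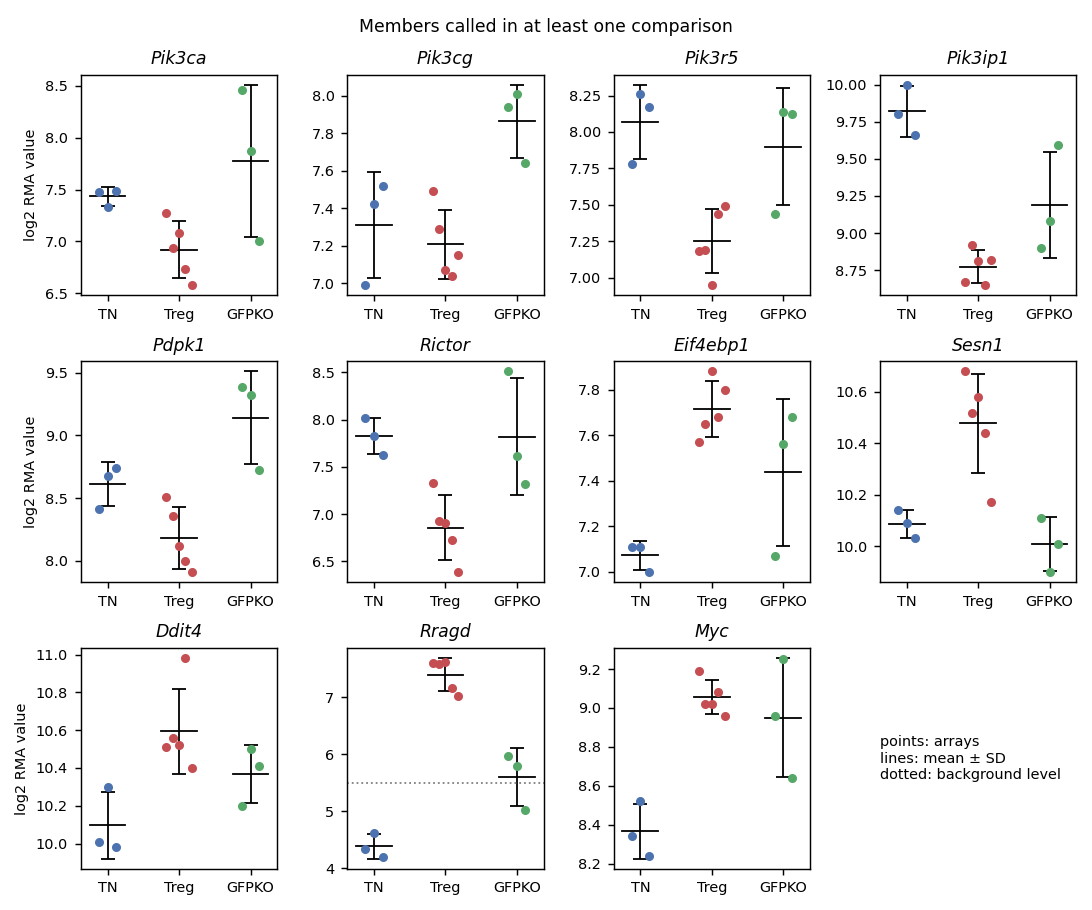
Log2 RMA values of the 11 genes called in at least 1 comparison, with each array as a point and the mean ± SD of each group as lines; the dotted line marks the background level of 5.50. TN and Treg overlap in Pdpk1 and Pik3cg and in none of the other genes plotted, which were picked by the test on these same arrays. The GFPKO arrays spread widest in Pik3ca and Rictor.

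The subunits of PI3K itself were mostly not called between Treg and TN. Of the 4 catalytic subunits, Pik3cd, the delta subunit characteristic of lymphocytes, read between 10.88 and 11.73 over all 11 arrays, with a log2 fold change of -0.07 for Treg minus TN (95% interval -0.43 to 0.29; adjusted p = 0.89). Of its 4 other probe sets above background 1 was called, lower in Treg than in TN (-0.65, limma adjusted p = 0.013 over all probe sets) and than in GFPKO (-0.60, adjusted p = 0.024), both bounds on the size since Treg lay at background there, so the Pik3cd probe sets disagree. Pik3r1, which encodes the regulatory subunit p85 alpha, had a log2 fold change of -0.01 (-0.40 to 0.39). Pik3ca, the alpha subunit found in most cells, read lower in every Treg array (6.58 to 7.27) than in any TN array (7.33 to 7.49), but was not called (log2 fold change -0.51 ± 0.25 SE, adjusted p = 0.27). Of 20 alternative analyses 3 called it. Pik3cb, the beta subunit, lay at background in all 3 groups.

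Pik3r5 partners the gamma subunit, which responds to chemokine receptors and other G protein-coupled receptors. It read 7.78, 8.26 and 8.17 in TN against 7.18, 7.19, 6.95, 7.44 and 7.49 in Treg, with no overlap (log2 fold change -0.82 ± 0.18, adjusted p = 0.0071 in limma). Without TN replicate 2 the adjusted p was 0.0551. Its partner Pik3cg had a log2 fold change of -0.10 (adjusted p = 0.80). Myeloid cells also express Pik3r5, and among 12 markers of myeloid and dendritic cells Treg had 6 below TN and 1 above it by the test. The summed level of these 12 was 9.29 to 9.87 (log2) in TN, 8.21 to 8.93 in Treg and 8.12 to 8.77 in GFPKO. Itgam, Itgax, Cd14, Siglech, Adgre1 and Cd68 were at background in TN, while Tyrobp, a signalling adaptor of myeloid and NK cells, had a mean of 7.87 there against 4.56 in Treg and 4.58 in GFPKO. Markers of other cells moved as well: of 4 NK markers 2 were lower in Treg than in TN, Klrd1 (mean 8.83 in TN and 3.15 in Treg) and Eomes (6.12 and 5.46), and the summed NK level was 8.91 to 9.34 in TN, 6.04 to 6.26 in Treg and 6.14 to 6.45 in GFPKO, with Ncr1 at background in every group. Of 7 B cell markers Cd79b was higher in Treg (7.63 against 4.36 in TN) and Ms4a1 lower. The summed B cell level was 7.18 to 7.33 in TN, 8.21 to 8.54 in Treg and 6.93 to 7.41 in GFPKO, and Ms4a1, Cd79a and Pax5 were at background in every group. The part of such cells in the differences from TN, of Pik3r5 and of the other genes, was not tested. Pik3r5 read 7.44, 8.14 and 8.12 in GFPKO.

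Of the 3 brakes on PI3K, Pik3ip1 alone was called between Treg and TN. It read 9.80, 10.00 and 9.66 in TN and 8.67, 8.92, 8.81, 8.65 and 8.82 in Treg. The lowest TN array lay above the highest Treg array (log2 fold change -1.05 ± 0.15 SE, adjusted p = 0.00018 in limma), and the second Pik3ip1 probe set gave -1.35. Inpp5d, which encodes the phosphatase SHIP-1 that removes the 5-phosphate of PIP3, read 9.19 to 9.35 in TN and 9.57 to 9.87 in Treg without overlap, but was not called (log2 fold change 0.44 ± 0.18, adjusted p = 0.17). It was called in 4 of 20 alternative analyses. Inpp4b, a phosphatase of the lipid that SHIP-1 produces, had a log2 fold change of 0.16 (95% interval -0.44 to 0.76).

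The kinases of the core pathway showed no called difference between Treg and TN. Akt1 had a log2 fold change of 0.19 (95% interval -0.20 to 0.59), Akt2 one of 0.04 (-0.35 to 0.43) and Pdpk1, which encodes PDK1, one of -0.43 (-0.81 to -0.05; adjusted p = 0.17). Mtor read 7.51 to 7.81 over all 11 arrays, and its log2 fold change was -0.01 (-0.24 to 0.22). Rptor, the subunit that defines mTORC1, read 7.42 to 7.6 in TN and 7.49 to 7.86 in Treg, with a log2 fold change of 0.20. Mlst8, shared by both complexes, had one of 0.16, and the mTOR inhibitor gene Deptor lay at background in every group.

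Rictor, by contrast, was lower in Treg. It read 8.02, 7.83 and 7.63 in TN and 7.33, 6.93, 6.91, 6.73 and 6.39 in Treg, without overlap (log2 fold change -0.97 ± 0.24 SE, adjusted p = 0.015 in limma). Another probe set above background gave -1.08 but was not called (adjusted p = 0.12). Without TN replicate 1 the adjusted p was 0.091, and without TN replicate 2 it was 0.0593. Mtor and Rictor thus differed in their call, and the difference between the genes was not tested.

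Among the regulators between AKT and mTORC1, none of Tsc1, Tsc2 and Rheb was called. Their log2 fold changes of Treg minus TN were -0.11, 0.36 and -0.19. Of the mTORC1 targets, Eif4ebp1, a repressor of cap-dependent translation that mTORC1 inactivates, rose. It read 7.11, 7.11 and 7.0 in TN and 7.57, 7.65, 7.88, 7.68 and 7.80 in Treg (log2 fold change 0.64 ± 0.14 SE, adjusted p = 0.0066 in limma), again without overlap. A second Eif4ebp1 probe set above background gave 0.70 but was not called (adjusted p = 0.088). Its relative Eif4ebp2 had a log2 fold change of -0.06, and Rps6kb2, which encodes S6 kinase 2, lay at background in every group.

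The inputs from stress and nutrients held the largest difference, that of Rragd. Ddit4, which encodes REDD1, an inhibitor of mTORC1 induced by hypoxia and glucocorticoids, read 10.01, 10.30 and 9.98 in TN and 10.51, 10.56, 10.52, 10.98 and 10.40 in Treg (log2 fold change 0.50 ± 0.14 SE, adjusted p = 0.041 in limma). The groups did not overlap, but 9 of 20 alternatives lost the call, among them centring each array on its median. Sesn1, a sestrin that links amino acids and stress to mTORC1, read 10.03 to 10.14 in TN and 10.17 to 10.68 in Treg and was not called (log2 fold change 0.39, adjusted p = 0.069); 8 of 20 alternatives called it. Sesn3, Flcn and Fnip1, the last 2 encoding folliculin and its partner at the lysosome, had log2 fold changes of -0.28, -0.08 and -0.31.

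The AMPK genes and Txnip gave no call. Prkaa1, the catalytic subunit alpha 1, read close to background, with group means of 5.68 in TN, 5.36 in Treg and 5.29 in GFPKO. Stk11, which encodes its activating kinase LKB1, had a log2 fold change of -0.05 for Treg minus TN (95% interval -0.41 to 0.30). Txnip, a restraint on glucose uptake, read 10.78 to 11.28 over all 11 arrays, with a log2 fold change of -0.02 (-0.28 to 0.24). Myc, the transcription factor of growth and metabolism, rose: it read 8.34, 8.52 and 8.24 in TN and 9.19, 9.02, 9.02, 9.08 and 8.96 in Treg, all Treg arrays above all TN arrays (log2 fold change 0.69 ± 0.14 SE, adjusted p = 0.0030 in limma). Over the 26 genes not called, log2 fold changes ran from -0.51 to 0.44, and their 95% intervals extended up to 0.61 to either side.

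**Figure D3:**
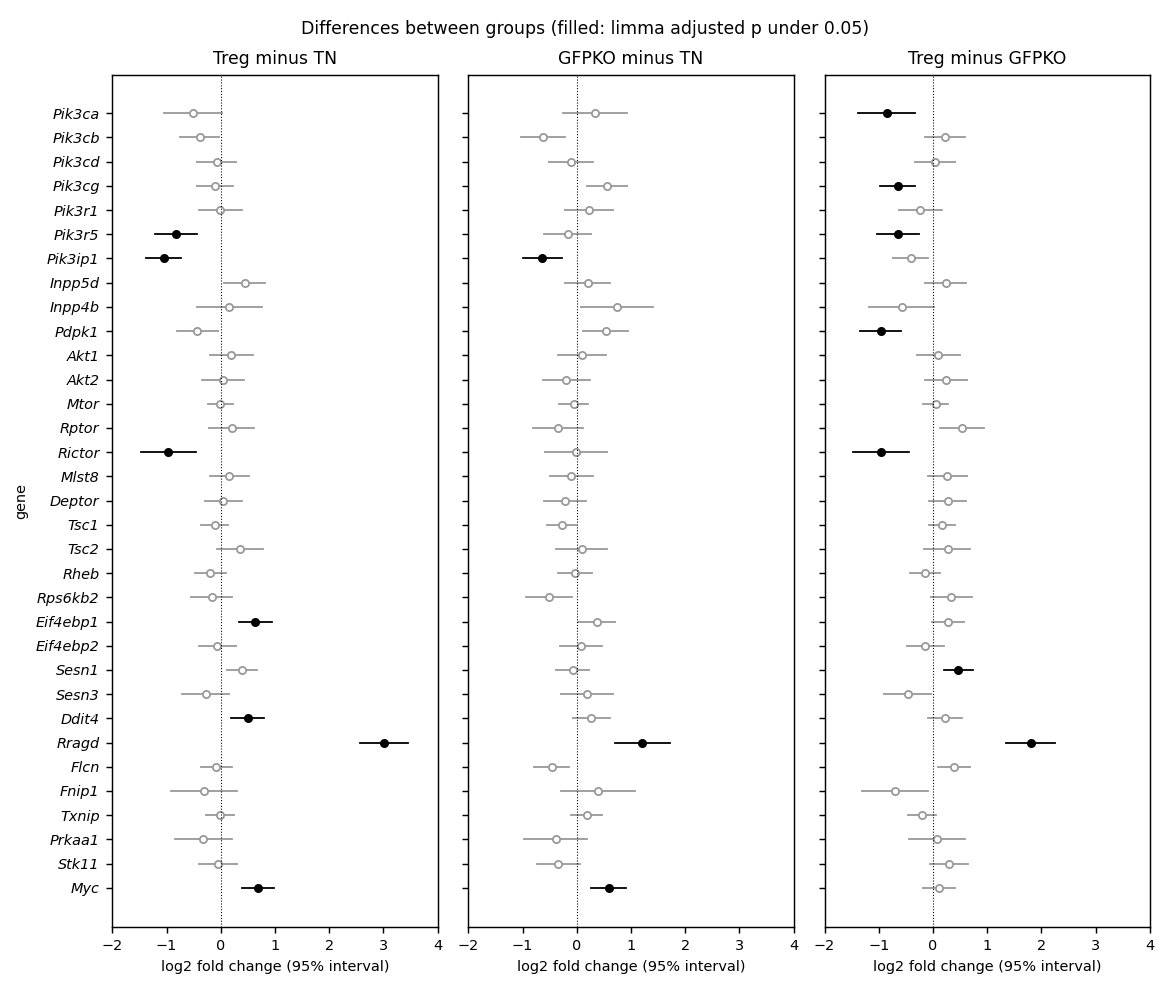
Log2 fold changes of the 33 genes in the 3 comparisons, with 95% intervals that are not adjusted for the number of genes; filled points were called at an adjusted p under 0.05. Rragd lies farthest from 0 in all 3 comparisons, and most other intervals include 0.

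GFPKO against TN gave 3 called genes of 33 (9.09%), where 5.66% of all genes were called, 2.64% higher and 3.02% lower. Rragd and Myc were higher in GFPKO and Pik3ip1 was lower. The median log2 fold change was -0.01 over the 33 genes and -0.04 over all genes. This comparison has the same TN arrays as the one above, so the values stand beside it and are no independent repeat.

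GFPKO exceeded TN in Rragd by at least 2.32-fold (limma log2 fold change 1.21 ± 0.23 SE, adjusted p = 0.0047), with 3 of 3 GFPKO arrays above every TN array. GFPKO replicate 3, at 5.02, was itself under the background level. Myc read 8.96, 9.25 and 8.64 in GFPKO, above the 3 TN arrays (log2 fold change 0.59 ± 0.15, adjusted p = 0.035). Pik3ip1 read 8.90, 9.08 and 9.59 in GFPKO, below the 3 TN arrays (log2 fold change -0.64 ± 0.17, adjusted p = 0.039). Of 20 alternatives, 18 kept the Rragd call, 8 the Myc call and 7 the Pik3ip1 call. With the actin difference as a covariate the adjusted p was 0.106 for Rragd, 0.443 for Myc and 0.476 for Pik3ip1, and none of the 33 genes was called. The count was 1 without TN replicate 1 or 2, Treg replicate 2, 3 or 4, or GFPKO replicate 2. It was 2 without TN replicate 3, Treg replicate 5 or GFPKO replicate 1, and 10 without GFPKO replicate 3.

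The remaining 30 genes had log2 fold changes from -0.62 to 0.74 in this comparison. Pik3cg read 7.94, 8.01 and 7.64 in GFPKO against 6.99, 7.42 and 7.52 in TN, without overlap but not called (log2 fold change 0.55, adjusted p = 0.081). Flcn read 7.35, 7.52 and 7.94 in GFPKO against 8.03 to 8.12 in TN, also without overlap and not called (-0.46, adjusted p = 0.10). Inpp4b had the highest estimate of those not called (0.74, adjusted p = 0.24), with GFPKO replicate 1 at 10.16 and replicate 3 at 8.75. Rictor, lower in Treg than in TN, had a log2 fold change of -0.01 in GFPKO (95% interval -0.58 to 0.56), and its GFPKO values of 8.51, 7.62 and 7.32 spanned the whole TN range.

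Treg against GFPKO gave 7 called genes of 33 (21.2%), where 9.43% of all genes were called. Rragd and Sesn1 were higher in Treg, and Pdpk1, Rictor, Pik3ca, Pik3cg and Pik3r5 were lower. The calls were thus 2 higher and 5 lower, while over all genes 6.88% were called higher and 2.55% lower. The median log2 fold change was 0.10 over the 33 genes and 0.08 over all genes.

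Rragd was 3.49-fold higher in Treg than in GFPKO (log2 fold change 1.80 ± 0.21 SE, adjusted p = 5.4e-05 in limma), the lowest Treg array (7.02) lying above the highest GFPKO array (5.97). All 20 alternatives kept this call, with log2 fold changes from 0.59, for the mean of all probe sets, to 2.37. Rragd was the 1 gene of the 33 called in all 3 comparisons, with its levels in the order TN, GFPKO, Treg. Sesn1 read 10.68, 10.52, 10.58, 10.44 and 10.17 in Treg against 10.11, 9.90 and 10.01 in GFPKO, without overlap (log2 fold change 0.47 ± 0.13, adjusted p = 0.029). Other Sesn1 probe sets above background gave 0.34 (limma adjusted p = 0.39) and 0.41 (adjusted p = 0.12), neither called. The call of Sesn1 was lost in 9 of 20 alternatives.

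Pdpk1 read 9.39, 9.32 and 8.72 in GFPKO against 8.51, 8.36, 8.12, 8.00 and 7.91 in Treg. No Treg array reached a GFPKO array (log2 fold change -0.96 ± 0.18 SE, adjusted p = 0.0027 in limma). The second Pdpk1 probe set gave -0.56 and was not called (adjusted p = 0.082). Pik3cg had a log2 fold change of -0.65 ± 0.15 (adjusted p = 0.014) without overlap, its 5 Treg arrays lying between 7.04 and 7.49. The second Pik3cg probe set gave -0.64 and was not called (adjusted p = 0.078). Pik3ca, with GFPKO arrays at 8.46, 7.87 and 7.0, overlapped Treg (log2 fold change -0.85 ± 0.25, adjusted p = 0.042), and none of its 4 other probe sets above background was called. Rictor (-0.96 ± 0.24, adjusted p = 0.020) and Pik3r5 (-0.65 ± 0.18, adjusted p = 0.036) also overlapped between the groups. Of 20 alternatives 6 kept the Pik3ca call, 13 that of Pik3r5, 15 that of Pik3cg, 17 that of Rictor and 19 that of Pdpk1. Another Rictor probe set above background was called lower in Treg as well (-1.6, limma adjusted p = 0.02). For 2 genes not called here besides Pik3cd, another probe set was called lower in Treg than in GFPKO: Fnip1 (-1.14, limma adjusted p = 0.014, against -0.70 for the brightest) and Pik3ip1 (-0.75, adjusted p = 0.0039, against -0.41).

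The actin control was set beside these values, and no association with it was tested. It also entered an alternative fit as a covariate. Since GFPKO replicates 1 and 2 lay above all TN and Treg arrays in it, covariate and group cannot be fully told apart. GFPKO replicates 1 and 2, with the highest 3′ minus 5′ signal, held the highest values of Pik3ca, Pik3cg and Pdpk1 of all arrays. GFPKO replicate 3 read 7.0 for Pik3ca, within the Treg range. Rictor read 8.51 in GFPKO replicate 1 but 7.62 in GFPKO replicate 2, the array with the highest signal. Pik3r5 ran otherwise, at 7.44 in GFPKO replicate 1, its lowest GFPKO value, and 8.14 and 8.12 in replicates 2 and 3. With the actin difference as a covariate Pdpk1 stayed called (log2 fold change -0.68, adjusted p = 0.0237), and Pik3ca (-0.49, adjusted p = 0.374), Pik3cg (-0.44, adjusted p = 0.145), Rictor (-0.74, adjusted p = 0.182), Pik3r5 (-0.64, adjusted p = 0.151) and Sesn1 (0.47, adjusted p = 0.114) were not. An alternative chosen after seeing the data left out both GFPKO replicates 1 and 2. It takes the lone GFPKO array to vary like the other groups. The log2 fold changes were then -0.81 for Pik3ip1, -0.54 for Pdpk1 and -0.08 for Pik3ca. Without GFPKO replicate 3 alone the count of called genes among the 33 was 13. It was 3 without GFPKO replicate 2 and 4 without Treg replicate 2 or Treg replicate 3.

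**Figure D4:**
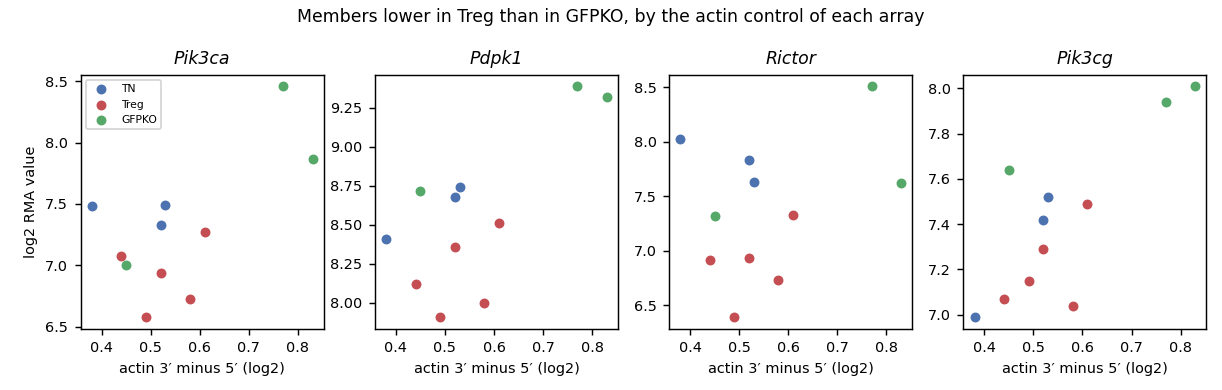
The log2 RMA values of 4 of the 5 genes called lower in Treg than in GFPKO, plotted against the actin control's 3′ minus 5′ signal (log2) of the same array. Points are the 11 arrays, coloured by group. Pik3r5, also called lower, is not plotted. GFPKO replicates 1 and 2, at 0.77 and 0.83, lie apart from all other arrays on the x axis.

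Of the 11 called genes 9 had a promoter window, 12 windows in all, and the forkhead motif was found in 2 of these, at Pik3cg and Sesn1. The 39 windows of the 29 measured genes that had one held it in 5 cases, those of Akt1, Pik3cg, Sesn1, Stk11 and Txnip, and 3.65% of all 32851 windows did. The E-box was found in 2 of the 39 windows, at Rheb and Fnip1, neither of them called, and in 7.15% of all windows. At Pik3cg the motif, in capitals here, lay 92 bases before 1 of 2 annotated starts, on the - strand at chr12:32208529-32208588 of GRCm38.p6.
Pik3cg: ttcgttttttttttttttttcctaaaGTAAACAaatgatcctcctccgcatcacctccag
A match of letters is a description of the sequence and not a bound site.

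Other genes of the pathways were read from lists of 25, 43 and 19 genes. Of 22 measured PI3K genes 4 were higher and 2 lower in Treg than in TN, 1 and 2 in GFPKO than in TN, and 2 and 2 in Treg than in GFPKO. These are 27.3%, 13.6% and 18.2% of the list, beside 9.97%, 5.66% and 9.43% of all genes in the same comparisons. Phlpp1, a phosphatase that inactivates AKT, read 7.77 to 8.10 in Treg against 5.78 to 6.22 in TN and 5.78 to 6.11 in GFPKO. The Treg arrays lay clear of both other groups, by a log2 fold change of 1.89 ± 0.13 over TN (adjusted p = 1.1e-07 in limma) and 2.0 ± 0.13 over GFPKO (adjusted p = 2.3e-07). Sgk1, a kinase activated by mTORC2 and PDK1, ran the other way, with 9.59 to 9.93 in TN, 8.91 to 9.0 in GFPKO and 6.39 to 7.13 in Treg (Treg minus TN -2.95 ± 0.17, adjusted p = 1.6e-08). Sgk3, a relative of Sgk1, had a log2 fold change of -1.25 ± 0.14 in Treg against TN (adjusted p = 1.9e-05), and Trib1, a pseudokinase of the Tribbles family, was higher by at least 1.53 ± 0.14 (adjusted p = 1.6e-06), a lower bound since TN was at background.

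Of 39 measured mTOR genes 4 were higher and 0 lower in Treg than in TN, where 9 had an unadjusted p under 0.05 in either direction. In GFPKO against TN 1 was higher and 1 lower, and in Treg against GFPKO 5 were higher and 1 lower. The shares called, 10.3%, 5.13% and 15.4%, stand beside 9.97%, 5.66% and 9.43% of all genes, so the first and second are close to the background. Prr5l, which encodes an mTORC2-associated protein, had its highest level in GFPKO, at 6.58, 7.08 and 6.88, against 3.50 to 3.95 in TN and 4.35 to 5.19 in Treg. The 3 groups did not overlap. GFPKO lay at least 3.06 ± 0.20 above TN on the log2 scale (adjusted p = 1.3e-07) and at least 2.0 ± 0.18 above Treg (adjusted p = 4.6e-06), lower bounds since both were at background. Of 18 measured AMPK genes 0 were higher and 1 lower in Treg than in TN in limma, with 3 at an unadjusted p under 0.05. In GFPKO against TN 0 were called by limma and 3 had an unadjusted p under 0.05, and 2 were higher and 2 lower in Treg than in GFPKO. The called shares were 5.56%, 0% and 22.2% of the list, against 9.97%, 5.66% and 9.43% of all genes.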

How the data were processed

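The deposited values are log2 expression values, made by the authors with RMA per the submitters' processing notes, a method of background correction, quantile normalisation and summary of probes into probe sets. The log2 scale was read from the values (1.54 to 14.65). No scanner files or detection calls were used, so array number limits the precision. Of 45101 probe sets 34945 had 1 gene symbol in the platform annotation, giving 18193 genes, each taken from its brightest probe set; 932 with several symbols and 9211 that the annotation did not list were left out. All 33 measured genes matched RefSeq by Entrez ID. Group means were fitted jointly to the 11 arrays (R 4.3.3, limma 3.58.1, empirical Bayes, two-sided, Benjamini-Hochberg over all genes, no filter, no covariate), checked on simulated data. Genes called in any comparison are given array by array, and of the other pathway lists at most the 8 largest called changes. The members and lists were chosen with earlier results of these data known. Alternatives covered the probe set rule, a filter at a mean of 5, centring, 2-group fits, a variance trend, array weights, the actin covariate, a replicate block and leaving out each array.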

Additional observations from a re-analysis of the deposited data

Results flagged for a closer look

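Ddit4 in Treg was the 1 gene of the 33 in which 1 Treg array stood far from the other 4. Treg replicate 4 read 10.98, and the others 10.40 to 10.56, so that the gap made up 0.72 of the group's range, above the critical value of 0.71 for 5 arrays. Chance alone flags about 1 in 20 genes this way. Without this array the log2 fold change of Ddit4 against TN was 0.40 and its call was lost (limma adjusted p = 0.0865).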

How the results depend on the processing

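Of 17 calls among the 33 genes over the 3 comparisons, 5 were kept by all 20 alternatives: Rragd in Treg against TN and against GFPKO, and Pik3ip1, Myc and Eif4ebp1 in Treg against TN. The other 12 were lost by at least 1, and none was reversed. Of 82 results not called, 31 were called by at least 1 alternative. Where a count moved, the cause was not tested. The 20 alternatives include the fit without both GFPKO replicates 1 and 2, added after seeing the data. That fit leaves 1 GFPKO array, which it takes to vary like the other groups. Its counts are listed below for Treg against GFPKO only, and no conclusion is drawn from them. In GFPKO against TN the count of called genes among the 33 was 1 in the fit over these groups alone, 17 with array weights and 0 with the actin covariate. Among 95 other pathway genes it was 5 in the fit over these groups alone and 31 with array weights, and among all genes 562, 5051 and, with the actin covariate, 570. In Treg against GFPKO the count among the 33 was 4 in the fit over these groups alone, 19 with array weights, 3 with the actin covariate and 3 without both replicates. Among the other pathway genes it was 48 with array weights, 7 with the covariate and 6 without both replicates, and among all genes 6756, 811 and 635. In Treg against TN the count among the 33 was 10 in the fit over these groups alone and 10 with array weights. Array weights called 3223 of all genes there. Leaving out 1 array at a time gave 5 to 9 of the 33 genes in Treg against TN, 1 to 10 in GFPKO against TN and 3 to 13 in Treg against GFPKO. The ranges were 12 to 18, 5 to 17 and 9 to 33 for the other pathway genes, and 1360 to 2398, 644 to 1868 and 1134 to 3421 for all genes. The share of higher calls moved too: in GFPKO against TN 480 were higher and 549 lower, 341 and 229 with the actin covariate, and 644 and 1224 without GFPKO replicate 3.

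Replicate numbers are shared between groups, but deviations of same-numbered arrays correlated from -0.22 to 0.51, so the numbers were not taken as pairs. With the replicate number as a block, 7, 2 and 5 of the 33 genes were called in the 3 comparisons in the order above, and in Treg against GFPKO 8 other pathway genes and 1049 of all genes.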

Other observations

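The relatives of Myc and Txnip were read from a list of 16 genes, all measured. In Treg against TN 3 were higher and 0 lower (limma), where 4 had an unadjusted p under 0.05, in GFPKO against TN 2 were higher and 1 lower, and in Treg against GFPKO 2 were higher and 0 lower, where 6 had an unadjusted p under 0.05. These are 18.8%, 18.8% and 12.5% of the list, beside 9.97%, 5.66% and 9.43% of all genes. Mxd1, a repressor that competes with Myc for its partner Max, read 6.08 to 6.87 in TN, 7.97 to 8.32 in Treg and 8.13 to 8.43 in GFPKO. Both other groups lay above TN, by a log2 fold change of 1.68 ± 0.16 in Treg (adjusted p = 2.8e-06) and 1.84 ± 0.18 in GFPKO (adjusted p = 8e-06). Mxd4, a repressor of the same family, was higher by 1.38 ± 0.17 in Treg (adjusted p = 3.3e-05) and 0.88 ± 0.19 in GFPKO (adjusted p = 0.0093). Of 20 alternatives 2 lost the call in GFPKO, the fit over GFPKO and TN alone (adjusted p = 0.0665) and the one without GFPKO replicate 2 (0.72, adjusted p = 0.0572). Max itself, named after its values were seen, was lower in GFPKO than in TN, with a log2 fold change of -0.73 (adjusted p = 0.0095) and not called between Treg and TN (-0.19, adjusted p = 0.54).

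Arrdc4, an arrestin-domain relative of Txnip, differed between groups where Txnip gave no call. It read 7.06, 6.34, 7.18, 6.54 and 6.10 in Treg, against 3.86 to 4.48 in TN and 4.32 to 4.86 in GFPKO. The Treg arrays lay above all others, by at least 2.46 ± 0.23 over TN (limma adjusted p = 2.3e-06) and 2.02 ± 0.23 over GFPKO (adjusted p = 4.9e-05) on the log2 scale, lower bounds because both other groups were at background.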
